A study of Mus musculus with 20 samples.

Results

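This section describes 34 genes of cholesterol and fatty acid synthesis in NSC-34 cells, with and without added HuD. The genes were chosen by symbol, and all 34 were found among the 14924 genes with RNA-Seq and POL-Seq counts. They comprised 18 sterol synthesis enzymes, 10 genes of fatty acid synthesis, desaturation and elongation, and 6 genes of sterol sensing and transport. The last 6 were Insig1, Insig2, Srebf1, Srebf2, Scap and Stard4. They are called the 6 regulators below, although Stard4 is a sterol carrier. HuD, encoded by Elavl4, is a neuronal RNA binding protein of the ELAV family that recognizes U-rich stretches, mostly in 3′ UTRs. The data came from 20 libraries: HuD CRAC (crosslinking and cDNA analysis, which marks contact sites by deletions in the reads), RNA-Seq of total RNA, POL-Seq of polysome-bound RNA, and sequencing of polyadenylated 3′ ends.

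Cells build cholesterol from acetyl-CoA through HMG-CoA, mevalonate, farnesyl diphosphate, squalene and lanosterol. SREBP transcription factors, encoded by Srebf1 and Srebf2, switch on most of these enzymes together. When sterols are scarce, Scap escorts SREBP from the endoplasmic reticulum to the Golgi for cleavage. When sterols are plentiful, the Insig proteins hold Scap back. SREBP also drives fatty acid synthesis from citrate through Acly, Acaca and Fasn, followed by elongation by Elovl6 and desaturation by the Scd and Fads enzymes. Neurons use both products to build the membranes of axons and synapses.

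The NSC-34 line, used as a model of mouse motor neurons, is a hybrid of neuroblastoma and embryonic spinal cord cells. The HuD cells carried a lentiviral, tetracycline-inducible human HuD with His and HA tags, and were grown in medium with serum. For total RNA, polysomal RNA and 3′ ends, the HuD cells received tetracycline at 2 µg/ml for 48 h according to the labels. The study's methods name doxycycline at 2 µg/ml as the inducer. The labels did not state what the control NSC-34 cells of these assays received, so HuD and the drug cannot be told apart there. In the CRAC experiment, HuD cells were compared with control Trex cells, which express only the tetracycline repressor. According to the labels, both received tetracycline at 10 µg/ml for 24 h. The study's text also gives doxycycline at another dose and time for CRAC. There were 2 libraries per group for total and for polysomal RNA, and 3 per group for 3′ ends and for CRAC. The study's methods call the RNA-Seq, POL-Seq and 3′ end libraries biological replicates, and neither they nor the labels say what a replicate number stands for. In bulk RNA, fewer cells using a gene and less RNA per cell cannot be told apart.

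The RNA-Seq and POL-Seq libraries held 21296012 to 36284728 counts and the 3′ end libraries 12986862 to 15751036. Elavl4 was at 78.3 and 97.4 CPM (read counts scaled to a common library size by TMM) in total RNA of control cells and at 237 and 212 CPM in HuD cells. Its 3′ end counts were not higher, at 38.5 to 78.1 CPM in control and 31.4 to 54.6 CPM in HuD cells. The 3′ ends counted are those of the mouse gene, which a human transgene need not use, so they do not check the labels. Of 16 neuronal markers, 14 were listed and 12 reached 1 CPM in control total RNA, with Prph highest at 1203 CPM. Slc5a7 and Mnx1 were not listed. Chat was at 0.524, Stmn2 at 0.307 and Lhx3 at 1.3 CPM, while Isl1 was at 40.9 CPM. Of the glial markers Gfap and Mbp, Gfap was at 0.574 CPM and Mbp at 5.81 CPM in control total RNA, and their part in the results was not tested.

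CRAC found HuD contacts on 10 of the 34 genes, or 29.4%. The share was 8.59% over all genes with RNA-Seq counts and 9.90% over the protein coding ones. Those shares include genes at low counts, such as Stmn2 at 0.307 CPM in control total RNA. The members were at 5.90 (Idi1) to 945 CPM (Scd2) there, and the part of expression level in the contacts was not tested. The 14 windows of 7 nt lay on Hmgcs1 (HMG-CoA synthase), Sqle (squalene epoxidase), Cyp51 (lanosterol demethylase), Hsd17b7 (a sterol ketoreductase), Insig1, Srebf1, the Δ9 desaturases Scd1 and Scd2, Acly (ATP citrate lyase) and Elovl6. Cyp51, Insig1, Scd1 and Scd2 had 2 windows each. All but the Sqle window lay in the 3′ UTR. In 13 of the 14 windows positions 3 to 5 read UUU, and only a Scd2 window differed. Most windows had C before that core (8 of the 13, against 3 with A and 2 with G). The authors listed only windows that passed a motif score, so the UUU core was favoured by that selection. How often C preceded the core over all listed windows was not counted. The windows below, in capitals with 11 nt of transcript on each side, show a site with a p-value under 0.05 (Elovl6), 3 further sites on genes named in the results (Hsd17b7, Insig1 and Srebf1), the coding site (Sqle) and the exception (Scd2).
Elovl6: uuuuguucauuUGUUUUAuaucuucaugg
Hsd17b7: uguuucugccuCAUUUUUuuccuaguuau
Insig1: guauacaaugaGGUUUUUuuuuuuuucuc
Srebf1: guacuacuuugACUUUUGcaaacuuuauu
Sqle: gauucgacacuUCUUUUCcguugcaaucu
Scd2: aagauuuaaaaAAUAUAUauauauauaua

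The Hmgcs1 window was covered most deeply, by 67 reads of which 11 carried a deletion over the pooled HuD libraries. In GRCm38, Elovl6 was contacted at chr3:129636926-129636932 (plus strand), 3436 nt into a 3′ UTR of 5005 nt, by 21 reads of which 19 carried a deletion. The Hsd17b7 window at chr1:169951373-169951379 (minus strand) had 62 reads but 3 deletions. Insig1 had 30 reads with 5 deletions at chr5:28078400-28078406 and 16 reads with 4 deletions at chr5:28078475-28078481, both on the plus strand. Srebf1 had 10 reads and 6 deletions at chr11:60199661-60199667 (minus strand), 255 nt after the stop codon. Sqle had 12 reads and 6 deletions in its coding sequence at chr15:59330760-59330766 (plus strand), 157 nt before the stop codon. The AU-repeat window of Scd2 at chr19:44303921-44303927 (plus strand) had 8 reads and 3 deletions. The remaining windows had 6 to 10 reads.

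These were shallow contacts. The median over the 14 windows was 10 reads and 4 deletions, against 26 reads and 5 deletions over 2606 windows on protein coding genes. Windows on Hmgcs1 and Elovl6 had deposited combined p-values under 0.05 (0.0286 and 0.0307), as did 20.8% of the 2606 windows. The other 12 windows had values of 0.153 to 0.408. The authors listed windows that passed the motif score and had at least 6 reads and 3 deletions, a floor that a Scd2 window just met. The control libraries gave 1 read, on Insig1, over all 14 windows, and a count of 0 allows up to 3. The authors had penalized sites with control reads before listing windows. Few control reads therefore follow in part from that filter and are no separate check. The libraries were pooled, so the contacts have no replicate check. Contacted genes had longer 3′ UTRs (median 1911 nt, range 275 to 5005) than the other 24 (median 1414 nt, range 55 to 4231), and the part of length in the contacts was not tested.

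**Figure D1:**
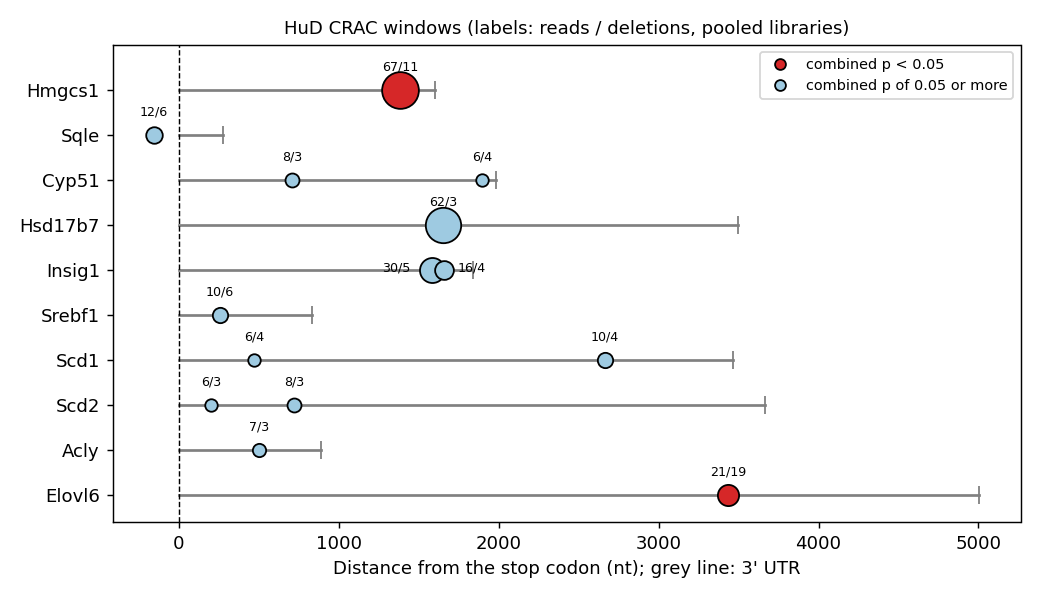
HuD CRAC windows of the 10 contacted genes by distance from the stop codon (nt, horizontal axis), with the 3′ UTR as a grey line, circles whose area grows linearly with the pooled HuD reads, and reads and deletions written beside it. Hmgcs1 (67 reads) and Hsd17b7 (62 reads) carry the largest circles, red marks the 2 windows with a combined p under 0.05, and the Sqle window alone lies before the stop codon.

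Levels were compared between genes only per length, as CPM per kilobase of exon in total RNA in control cells (mean ± SD, 2 libraries). Scd2 stood highest at 173 ± 43.3, above Acly at 77.1 ± 6.41, Pmvk (phosphomevalonate kinase) at 61.3 ± 2.08 and Fads1 (Δ5 desaturase) at 54.7 ± 5.83. The spread of Pmvk and Fads1 touched, and that of Scd2 and Acly did not. Scd2 is the desaturase known from brain, and Scd1, known from liver and fat, was at 19.7 ± 3.67. Among the regulators, Srebf1 (33.8 ± 2.66) and Insig1 (30.02 ± 4.76) did not differ beyond their spread, nor did Insig1 and Srebf2 (27.7 ± 2.05). Scap was at 19.5 ± 0.0288 and Insig2 at 11.6 ± 1.05. Acaca, the carboxylase that starts fatty acid synthesis, was lowest at 0.882 ± 0.0379, next to Acss2 (acetyl-CoA synthetase) at 1.27 ± 0.0183 and Idi1 (isopentenyl diphosphate isomerase) at 1.68 ± 0.469.

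The order of levels depends on the length used. With the longest coding transcript in place of all exon bases, Scd2 (173) and Acly (92.0) stayed highest and Acaca (1.58) lowest, while Acss2 was at 4.40, above Idi1 (1.95), and Scap (34.3) was level with Insig1 (34.4).

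Some values are uncertain because the transcripts share sequence with other annotated genes. Of the 50-nt stretches in the longest coding transcript, 86.4% of those of Fdps (farnesyl diphosphate synthase) also occurred in another gene, mostly Gm43738. The share was 52.6% for Acaca, 45.9% for Acat2 (acetoacetyl-CoA thiolase), 26.5% for Me1, 21.3% for Idi1 and 10.9% for Fdft1. Fdps had 9.87 and 10.9 CPM in total RNA of control cells but 210.3, 241 and 228 CPM at its 3′ ends. The ratio of mean 3′ end to mean total CPM was 21.8 for Fdps, 1.14 for Acaca and 0.0406 for Acat2, and it also reached 4.40 for Msmo1 and 4.25 for Mvd, whose transcripts shared no such stretch. Counts of genes with shared stretches depend on how shared reads were assigned.

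**Figure D2:**
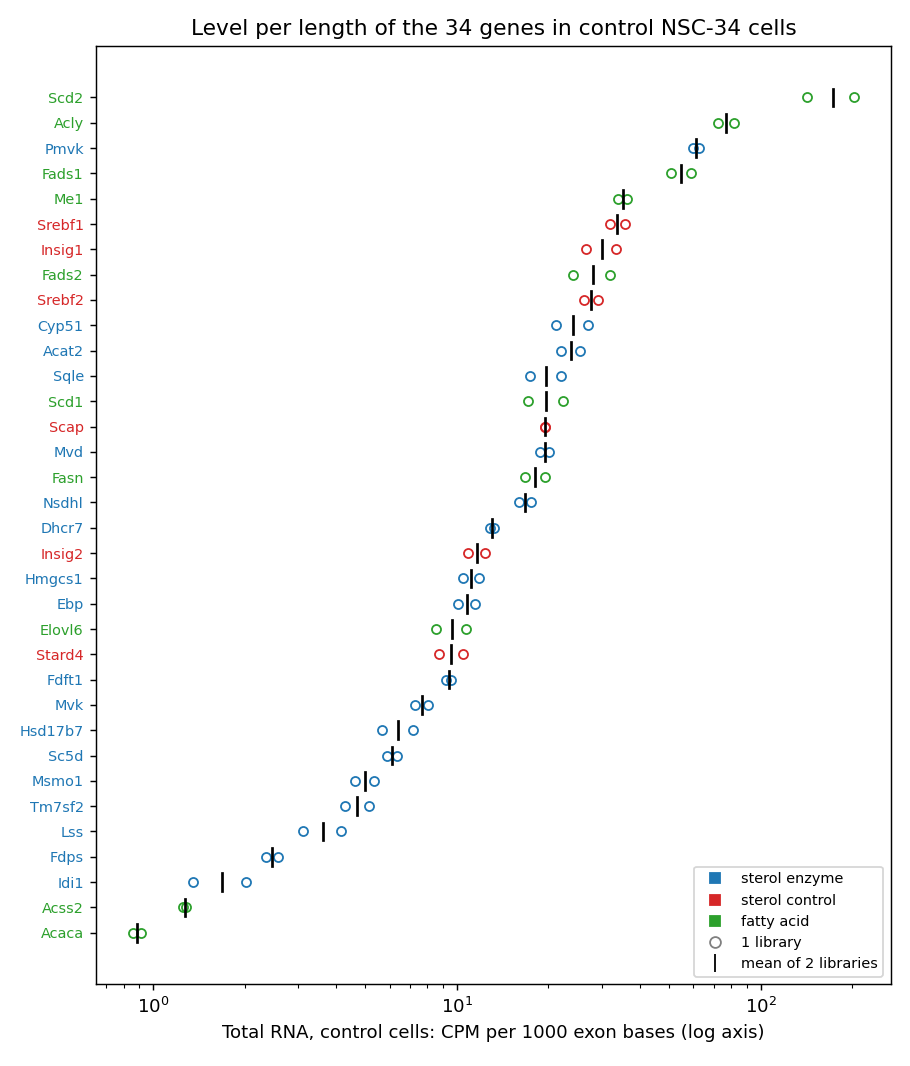
Level of the 34 genes in total RNA of control cells, as CPM per kilobase of exon on a log axis, with a circle for each of the 2 libraries and a bar for their mean. Scd2 (173), Acly (77.1), Pmvk (61.3) and Fads1 (54.7) lead, and Acaca (0.882) is lowest.

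The replicate libraries differed in these genes by as much as the groups did. Replicate 2 was higher than replicate 1 in each of the 4 RNA-Seq and POL-Seq groups for 20 of the 34 genes, against 19.9% of all genes tested. The median log2 difference between replicate 2 and replicate 1 was 0.18 in control and 0.14 in HuD total RNA, and 0.21 and 0.14 in polysomal RNA, against values between -0.0014 and 0.02 over all genes. Scd2 was at 778 and 1113 CPM in the control libraries 1 and 2 of total RNA, and at 746 and 928 CPM in the HuD libraries. Scd1 behaved alike, at 83.6 and 109 CPM in control and 73.8 and 89.7 CPM in HuD cells. Fits with the replicate number as a block are therefore given beside those without it, since they changed the count of called genes in every comparison between groups.

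In control cells, polysomal RNA was compared with total RNA to see which transcripts were enriched on polysomes. The sterol enzymes tended to the polysomal side, with 14 of 18 above 0 and a median log2 difference of 0.11, against 0.009 over all genes. The 10 fatty acid genes had a median of 0.07 and the 6 regulators of -0.04. Over the 34 genes the median was 0.07, with 23 above 0. Hmgcs1 was the gene called at an unadjusted p, with 48.0 and 54.4 CPM in total and 54.5 and 67.2 CPM in polysomal RNA, so that the groups barely stood apart (log2 difference 0.24 ± 0.11 SE, unadjusted p = 0.0498, adjusted p = 0.465 by edgeR's quasi-likelihood test). Over all genes, 4.45% were called higher and 6.25% lower at an unadjusted p, and no member was lower. Polysomal and total libraries did not overlap for 5 members on the lower side and 3 on the higher side. Of these, 4 and 2 were sterol enzymes. Over all 14906 genes tested the numbers were 2990 and 2824. With the replicate block 6 members were called higher (Hmgcs1, Cyp51, Nsdhl, Idi1, Stard4 and Acaca), or 6 of 34 against 10.7% of all genes.

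Hmgcs1 was not called without control polysomal library 2 (0.08) or control total library 1 (0.16). No member passed an adjusted p in that comparison, where 0.174% of all genes did, and 0.275% with the block. The lowest blocked adjusted p was 0.17, for Stard4, a sterol carrier. Its polysomal to total ratio was 1.13 and 1.20 in the 2 control pairs and 1.22 and 1.17 in the HuD pairs. Ratios of Srebf1 were 0.998 and 0.822 in control pairs, and those of Mvk (mevalonate kinase) 0.921 and 0.829. Without control polysomal library 2, the median over the members was -0.05 with 23 of 34 below 0, and no member was called, and without library 1 the median was 0.19 with 7 called, 2 of them (Hmgcs1 and Nsdhl) at an adjusted p. Without control total library 1, the median was -0.01 with 18 below 0 and 0 called, and without library 2 the number called was 3.

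**Figure D3:**
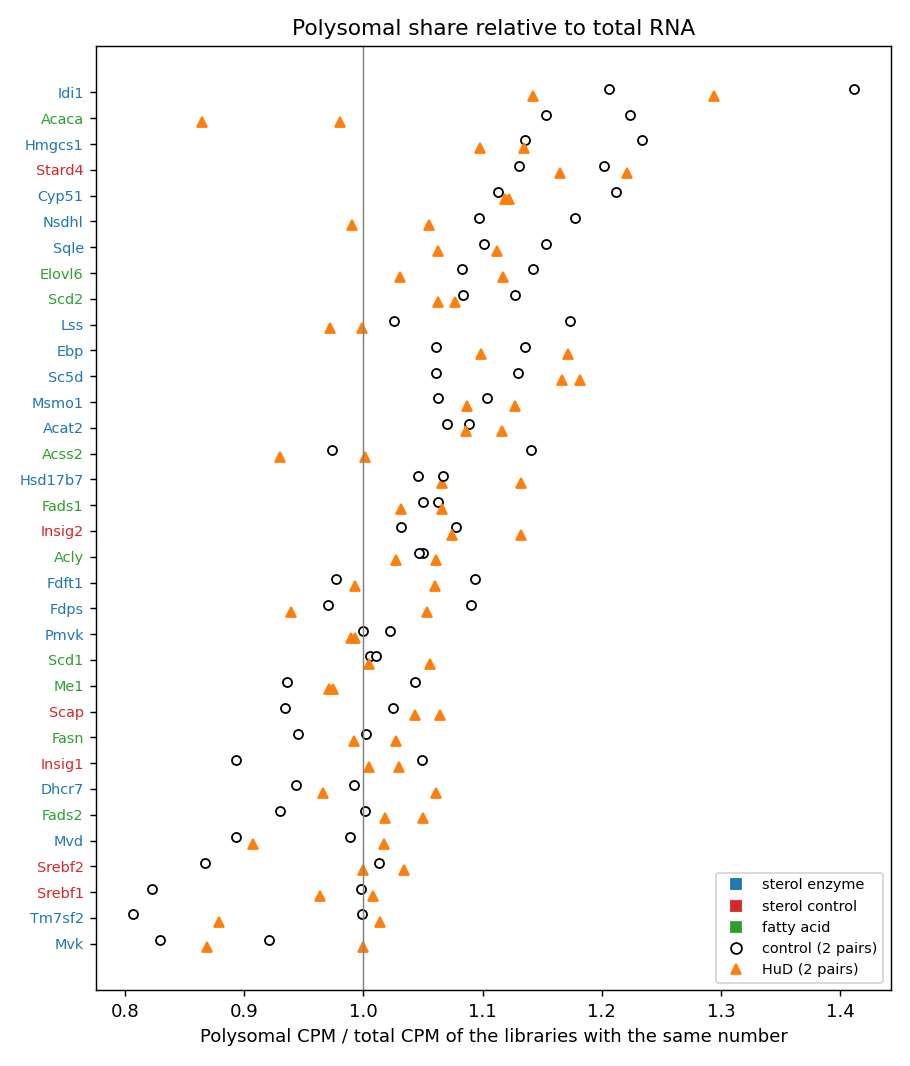
Polysomal CPM divided by total CPM of the libraries with the same number, for each of the 34 genes, with open circles for the 2 control pairs and triangles for the 2 HuD pairs. Idi1 reaches 1.41 in a control pair, Tm7sf2, Srebf1 and Mvk reach down to 0.806, 0.822 and 0.829, and Acaca is the gene whose triangles (0.865 and 0.981) sit farthest left of its circles (1.15 and 1.22).

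In total RNA, most of these genes were slightly lower in HuD cells, and none passed an adjusted p. The log2 change was below 0 for 28 of 34 (51.3% of all genes were), with a median of -0.09 against -0.004 over all genes. It was below 0 for 14 of 18 sterol enzymes, 6 of 6 regulators and 8 of 10 fatty acid genes. The median was -0.08 within replicate pair 1 and -0.09 within pair 2. The members' median log2 CPM had an SD of 0.12 between libraries of a group, which includes the difference between replicates that the groups shared. Without control library 2, 18 of 34 members were below 0 and the median was -0.01. At an unadjusted p, 2 members were lower, Srebf1 and Mvk (0.865% of all genes), and 0 were higher (1.78% of all genes).

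Srebf1 (chr11:60199089-60222581, minus strand) was at 179.6 and 201 CPM in control and at 161 and 155 CPM in HuD cells, so that the groups did not overlap (log2 change -0.27 ± 0.09 SE, unadjusted p = 0.0130, adjusted p = 1.00 by edgeR's quasi-likelihood test). Mvk (chr5:114444269-114460591, plus strand) was at 19.5 and 21.5 CPM in control and 16.5 and 18.2 CPM in HuD cells, also without overlap (log2 change -0.24 ± 0.10, unadjusted p = 0.0450, adjusted p = 1.00). Srebf1 was not called without control library 2 (-0.19) or HuD library 2 (-0.24), nor Mvk without control library 2 (-0.17) or HuD library 1 (-0.17). Groups did not overlap for 9 members on the lower side and 1, Acaca, on the higher side, against 16.8% and 15.1% of all genes. With the replicate block, 6 members were lower at an unadjusted p (Srebf1, Mvk, Insig1, Hsd17b7, Scd1 and Acat2, against 2.58% of all genes), with blocked adjusted p-values of 0.779 or more. Insig1 was at 82.4 and 103 CPM in control and 70.05 and 85.6 CPM in HuD cells, lower within each pair though the groups overlapped. Hsd17b7 was at 28.8 and 36.7 CPM in control and 26.0 and 28.6 CPM in HuD cells.

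The other regulators and the enzymes listed here had smaller log2 changes than Srebf1 and Mvk. Srebf2 was at 189 and 209.7 CPM in control and 191 and 179 CPM in HuD cells, and Scap at 145 and 145 against 136 and 138 CPM. Insig2 was at 43.0 and 37.8 against 37.9 and 40.2 CPM. Hmgcs1 was at 48.0 and 54.4 against 51.2 and 51.6 CPM, and Sqle at 96.9 and 122 against 104 and 107 CPM, with the HuD libraries inside the control range. Fasn, the fatty acid synthase, was at 183 and 213 against 179 and 203 CPM. Acly was at 383 and 431 against 412 and 427 CPM, and Cyp51 at 93.3 and 119 against 95.0 and 107 CPM. Elovl6 was at 54.8 and 69.0 against 53.6 and 62.8 CPM. The log2 changes of the 34 genes ran from -0.27 to 0.10. Without control library 2 no member was called, without HuD library 1 only Srebf1 was, and without control library 1 there were 5.

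In polysomal RNA, the picture was alike in size, with 26 of 34 members below 0 (51.6% of all genes) and a median log2 change of -0.10 against -0.006. This comparison used other libraries than that of total RNA, but it is not independent of it. Deviations of same-numbered polysomal and total libraries from their group means correlated at 0.54 in control and 0.46 in HuD cells. The log2 change in polysomal RNA was below 0 for 15 of 18 sterol enzymes and 8 of 10 fatty acid genes, but 3 of 6 regulators. Nsdhl (chrX:72918557-72958514, plus strand), a dehydrogenase of sterol demethylation, was called at an unadjusted p, with 50.02 and 59.1 CPM in control and 44.8 and 44.5 CPM in HuD cells (log2 change -0.29 ± 0.10, unadjusted p = 0.0158, adjusted p = 0.969 by edgeR). It was not called without control library 2 (-0.16), HuD library 1 (-0.29) or HuD library 2 (-0.28). Its groups did not overlap, as for 8 members on the lower and 1 on the higher side (14.6% and 14.1% of all genes). All genes were called lower in 1.89% and higher in 2.29%, and no member was higher.

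With the replicate block, 6 members were lower in polysomal RNA at an unadjusted p (Nsdhl, Acaca, Scd1, Hsd17b7, Insig1 and Scd2, against 4.98% of all genes), and the lowest blocked adjusted p was 0.519. Scd2 was at 844 and 1254 CPM in control and 804 and 987 CPM in HuD polysomes, and Scd1 at 84.1 and 110.2 against 74.2 and 94.8 CPM. Both were lower within each pair, though the groups overlapped. Srebf1 was at 179 and 165 against 155 and 156 CPM, lower in every HuD library (log2 change -0.15 ± 0.09, adjusted p = 0.969). Srebf2, Scap and Fasn had log2 changes of 0.01, 0.02 and 0.01. The median within pair 1 was -0.06 and within pair 2 -0.11. Without control library 2 the median was 0.01 with 13 of 34 members below 0, without HuD library 1 no member was called, and without control library 1 there were 8, Nsdhl also at an adjusted p.

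The change in translation efficiency (TE), the polysomal change beyond that of total RNA, was near 0 for the set. The median was 0.03 against -0.006 over all genes, with 18 members above 0 and 16 below, and within the replicate pairs it was -0.006 and -0.005. No member was called at an unadjusted p, where 0.570% of all genes were lower and 0.409% higher, and the share at an adjusted p was 0% in total RNA, in polysomal RNA and in TE. The 6 regulators were all above 0, from 0.03 for Stard4 to 0.12 for Srebf1, each within its standard error of 0.11 to 0.21. Their median was 0.0035 within pair 1, where Insig1, Srebf1 and Srebf2 were below 0, and 0.20 within pair 2. Acaca had the lowest value, -0.36 ± 0.17 (unadjusted p = 0.0567), and with the replicate block it was the only member called (-0.37 ± 0.12, unadjusted p = 0.0142, against 1.34% of all genes, blocked adjusted p = 0.992). Its total RNA was 14.6 and 15.5 CPM in control and 15.9 and 16.4 CPM in HuD cells, while its polysomal RNA was 16.8 and 19.0 against 13.7 and 16.1 CPM. The HuD ratios of 0.865 and 0.981 lay below the control ratios of 1.15 and 1.22. The number below 0 ran from 4 without control polysomal library 2 to 27 without HuD polysomal library 2. The median turned negative without control polysomal library 1 (-0.09), HuD polysomal library 2 (-0.06), control total library 2 (-0.09) or HuD total library 1 (-0.06). The TE comparison shares its libraries with those of total and polysomal RNA, and all of them share control libraries with the comparison of polysomes in control cells. Of the 50-nt stretches of Acaca, 52.6% also occur in Gm5182.

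**Figure D4:**
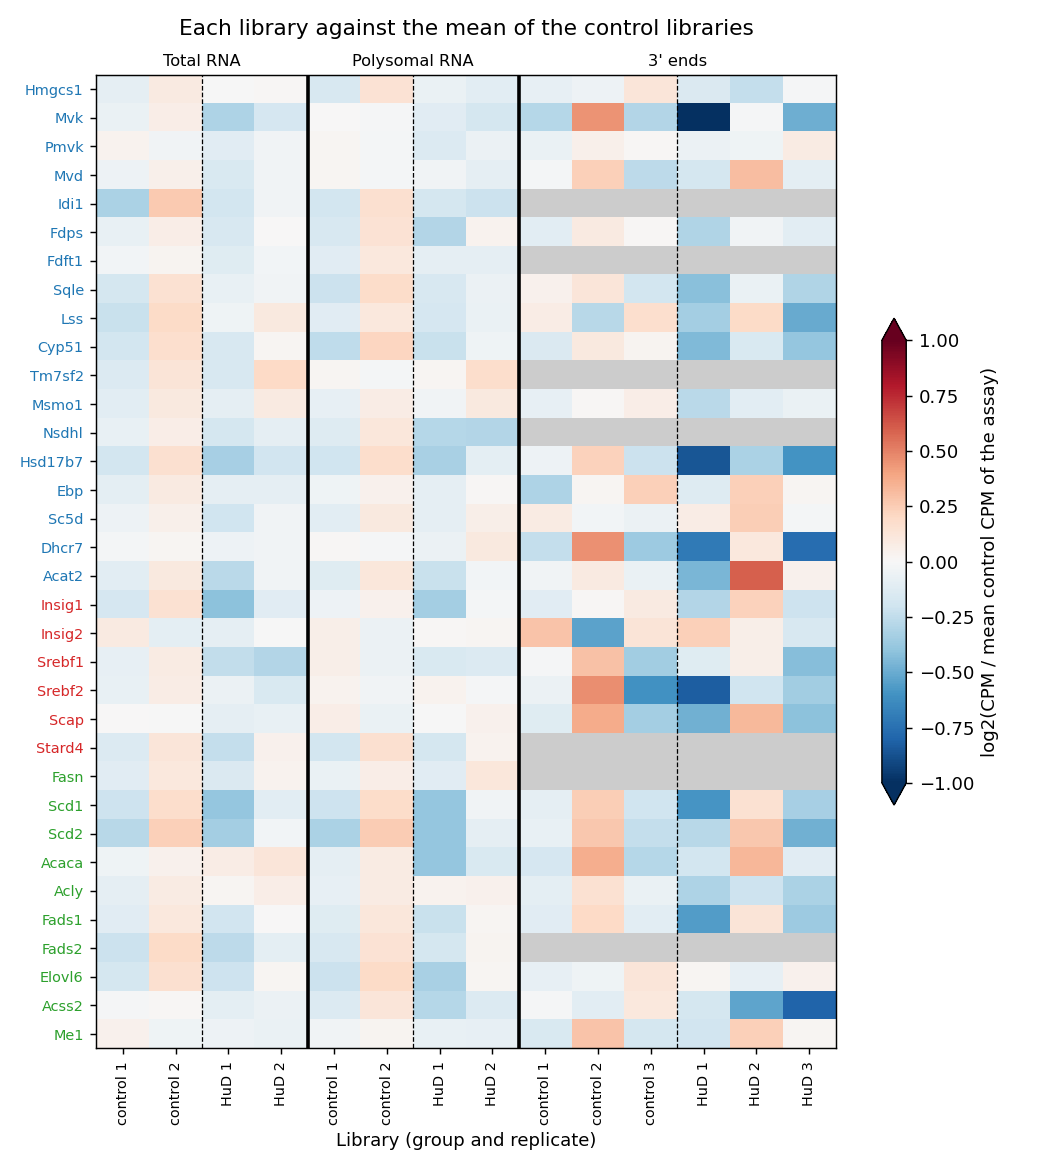
Each library as log2 of its CPM over the mean control CPM of the same assay (colour), for the 34 genes (rows) and the 14 libraries of total RNA, polysomal RNA and 3′ ends (columns), with grey where no 3′ end was listed. Replicate 2 is redder than replicate 1 for most genes in control and in HuD cells, and Hsd17b7 is blue in all 3 HuD libraries of the 3′ end assay.

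At 3′ ends, 27 of the 34 genes had counts and passed the filter. Idi1, Fdft1, Tm7sf2, Nsdhl, Stard4, Fasn and Fads2 had none listed. The log2 change was below 0 for 20 of 27 (49.9% of all genes), with a median of -0.14 against 0.0002 over 9621 genes. The median was -0.20, -0.09 and -0.14 within the 3 replicate pairs, and the members' median log2 CPM had an SD of 0.16 between libraries of a group. The median was -0.26 without HuD library 2, -0.07 without HuD library 1 and -0.05 without HuD library 3. In total RNA, 8 of 14 neuronal markers were below 0, with a median of -0.03. At 3′ ends 7 of 9 were above 0, with a median of 0.13. The only marker called there at an unadjusted p was lower, Slc18a3 (log2 change -1.10, unadjusted p = 0.0111 by edgeR). With the replicate block 3 markers were called higher and 2 lower, against 8.64% and 10.1% of all genes. At an unadjusted p, 3 members were lower (3.00% of all genes) and 0 higher (2.87%). None passed an adjusted p, which 0.0520% of all genes did. Groups did not overlap for 4 members on the lower side, Hsd17b7, Cyp51, Acly and Acss2, and for 0 on the higher side (5.81% and 6.23% of all genes).

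Hsd17b7 (chr1:169949535-169969241, minus strand), which reduces the keto group left by sterol demethylation, had the log2 change farthest from 0. It was at 16.3, 19.9 and 14.7 CPM in control and at 9.36, 13.7 and 11.2 CPM in HuD cells, every HuD library below every control library (log2 change -0.57 ± 0.20, unadjusted p = 0.0177, adjusted p = 0.705 by edgeR). Without control library 2 (-0.44) or HuD library 1 (-0.45) the unblocked fit did not call it. With the replicate block its adjusted p was 0.0490 (log2 change -0.57 ± 0.13), and it was the only member among the 2.26% of all genes that passed. The pairs gave -0.80, -0.54 and -0.39. The blocked adjusted p without 1 library ran from 0.0166 to 0.306, and was 0.306 without HuD library 1, 0.295 without control library 1, 0.0943 without control library 2 and 0.0587 without HuD library 2. In total RNA its log2 change was -0.26 ± 0.16 (unadjusted p = 0.126, adjusted p = 1.00).

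Cyp51 was at 68.1, 80.5 and 76.7 CPM at 3′ ends in control and 55.3, 67.5 and 57.6 CPM in HuD cells, every HuD library below every control library (log2 change -0.32 ± 0.13, unadjusted p = 0.0413, adjusted p = 0.836). Acly was at 534, 634 and 543 CPM in control and 461, 495 and 459 CPM in HuD cells (log2 change -0.27 ± 0.12, unadjusted p = 0.0421, adjusted p = 0.836). Neither was called without control library 2 or 3 or HuD library 1 or 3, with log2 changes of -0.31 to -0.26 for Cyp51 and -0.31 to -0.19 for Acly. Acly total RNA had a log2 change of 0.04 ± 0.10 and Cyp51 one of -0.07 ± 0.17. Sqle was at 104, 109.5 and 89.0 against 75.4, 96.5 and 82.1 CPM, and Hmgcs1 at 164, 167 and 189 against 157, 147 and 172 CPM. Mvk was at 15.1, 25.1 and 15.0 against 9.21, 18.3 and 13.2 CPM, lower in each pair with groups that overlapped. With the block, 8 members were lower at an unadjusted p (Hsd17b7, Dhcr7, Acly, Cyp51, Mvk, Fads1, Sqle and Scd1), against 10.1% of all genes, and 0 were higher.

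Scd2 was at 1542, 1956 and 1383 CPM at 3′ ends in control and 1343, 1957 and 1167 CPM in HuD cells, and Scd1 at 74.4, 94.1 and 69.0 against 52.7, 88.1 and 62.8 CPM. Library 2 was highest in both groups for each of them. Elovl6 was at 29.6, 30.5 and 34.1 against 31.9, 29.7 and 32.4 CPM (log2 change -0.004 ± 0.13). Acaca was at 15.3, 22.2 and 14.1 against 15.2, 21.6 and 15.9 CPM. Scap was at 57.5, 81.0 and 49.4 against 44.9, 78.4 and 47.0 CPM, and Insig1 at 10.9, 11.9 and 12.6 against 9.65, 13.9 and 10.2 CPM. Insig2 was at 11.3, 6.40 and 10.2 against 10.9, 9.68 and 8.30 CPM. Srebf1 (1.33 to 2.18 CPM) and Srebf2 (4.31 to 10.5 CPM) were listed at few 3′ end counts for their level in total RNA, and their 3′ end changes had standard errors of 0.28 and 0.29. Without control library 2 no member was called, without HuD library 1 only Acss2 was, without HuD library 3 only Hsd17b7 was, and without HuD library 2 there were 10.

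**Figure D5:**
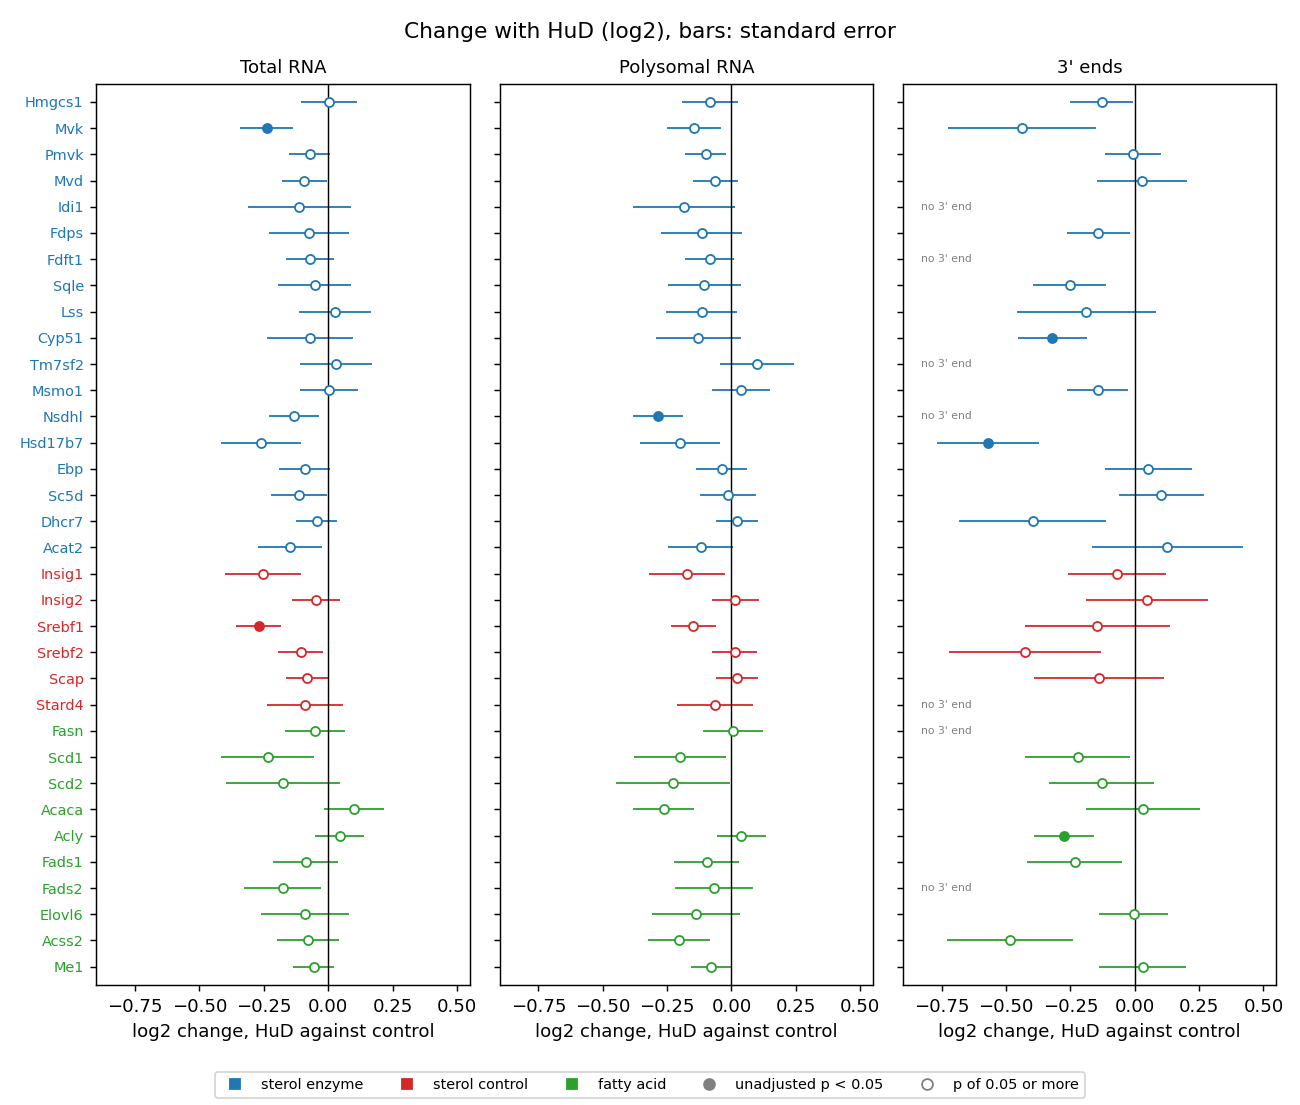
Log2 change in HuD against control cells for each gene in total RNA, polysomal RNA and 3′ ends, with bars for the standard error and filled points for an unadjusted p under 0.05. Points lie to the left of 0 for 28, 26 and 20 genes, and Hsd17b7 at 3′ ends (-0.57) is farthest from 0.

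The total RNA and 3′ end libraries were separate, so the members could be read across both. Of the 27 genes, 16 were below 0 in both, against 30.9% of 9403 genes measured in both. Of the others, 1 was above 0 in both and 10 differed in sign. Most members were below 0 in each assay alone (28 of 34 in total RNA, 20 of 27 at 3′ ends). A high share below 0 in both follows from those counts and is no separate check. The 10 genes with a CRAC window were all below 0 at 3′ ends (median -0.18), as were 10 of the 17 without a window (median -0.14). In total RNA, 8 of 10 contacted genes (median -0.13) and 20 of 24 others (median -0.08) were below 0, and in polysomal RNA 9 of 10 and 17 of 24. The difference between contacted and other genes was not tested. Hsd17b7, Cyp51 and Acly, the members called at 3′ ends, each had a window, of 62, 14 (over 2 windows) and 7 reads. Of the 8 members called there with the block, 5 had a window and Mvk, Dhcr7 and Fads1 had none. Mvk in total RNA and Nsdhl in polysomal RNA were also called without a window.

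The 27 genes had 39 listed 3′ ends, and 10 genes had more than 1. After ends within 20 nt were merged, 4 genes kept 2 ends. No member changed its 3′ end usage at an unadjusted or an adjusted p, by edgeR's test of usage with Simes p-values, where 0.151% and 0.0301% of 3317 genes did. With the replicate block, Fdps was called (unadjusted p = 0.0142, adjusted p = 1, against 0.995% of genes). Its main end took 95.1% ± 0.819 (SD) of counts in control and 96.4% ± 0.960 in HuD cells.

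Msmo1 (methylsterol monooxygenase) used its longer end, at chr8:64718139, for 72.3%, 72.4% and 71.5% of counts in control and 70.01%, 68.9% and 69.3% in HuD cells, so that the groups did not overlap. The exact two-sided permutation test gave p = 0.10, the smallest that 3 against 3 libraries allow, and 10.1% of 1434 genes with 2 or more merged ends had groups that did not overlap. The other end was at chr8:64718227, upstream on the minus strand. The model test of usage did not call Msmo1 (unadjusted p = 0.775, adjusted p = 1). Sc5d (a sterol desaturase) used its longer end for 31.3% ± 3.08 in control and 26.6% ± 1.34 in HuD cells, with groups that overlapped (exact permutation p = 0.20). Elovl6 has its CRAC window between its short and long ends, 1563 nt before the long one. The long end took 92.3% ± 1.04 of counts in control and 93.1% ± 1.63 in HuD cells (exact permutation p = 0.50).

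Other genes of the pathways lay on both sides of 0 in HuD cells. The median size of change in polysomal RNA, whatever its sign, was 0.1013 for the further sterol genes and 0.0868 for the further fatty acid genes (log2 scale). It was 0.0998 for the members and 0.1037 for all genes. In total RNA it was 0.0733 and 0.0445 for these lists, against 0.0883 for the members and 0.0845 for all genes. Of 19 further sterol genes (such as Npc1, Abca1, Soat1 and the SREBP proteases Mbtps1 and Mbtps2), 9 were below 0 in total RNA, with a median log2 change of 0.0014 and 0 called at an unadjusted p (1 lower with the block, Mylip). At 3′ ends their median was -0.02, with 7 of 12 below 0 (0 called, and 1 lower with the block, Mbtps2). Of 25 further fatty acid genes, 24 were listed, with a median of -0.02 in total RNA and 0 called. At 3′ ends their median was 0.10, with 14 of 19 above 0 and 1 called higher, Mecr (0.36, unadjusted p = 0.0302), an enzyme of mitochondrial fatty acid synthesis. With the block Mecr, Hacd1 and Thrsp were called higher there (8.64% of all genes). In polysomal RNA Ggps1 was lower (-0.25, unadjusted p = 0.0311) and Fads3 higher (0.25, unadjusted p = 0.0224). With the block, 3 further sterol genes were lower, and 3 further fatty acid genes were lower and 3 higher (4.31% of all genes were higher). On polysomes of control cells, the further sterol genes had a median of 0.09 with 14 of 19 above 0, close to the sterol enzymes. The difference between these lists and the 34 genes was not tested.

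Promoters were searched because SREBP acts through sterol response elements. RefSeq promoters (GRCm38.p6, 250 bases before to 50 after each start) were at hand for 27 of the 34 genes, with 36 starts. Fdps, Fdft1, Sqle, Stard4, Scd1, Scd2 and Fads1 had none and were not searched. The element TCACNCCAC, on either strand, occurred in the promoter of 1 member, Hmgcs1, and in 1.24% of all promoters. It is shown in capitals, 137 bases before the start, within the stretch chr13:119690204-119690232.
Hmgcs1: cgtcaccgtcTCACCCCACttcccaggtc

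The NF-Y motif CCAAT was found in promoters of 22 of the 27 genes (81.5%), against 42.8% of genes with RNA-Seq counts and a promoter. The GC box GGGCGG was found in 23 (85.2%), against 68.1%. Both were searched on either strand, and neither overlaps the sterol element in its letters. A match is no evidence of binding.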

How the data were processed

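Gene counts of total and polysomal RNA and counts per 3′ end were used as deposited. According to the submitters' notes and the study's methods, the authors aligned reads with STAR 2.5.3a or TopHat2 2.0.14 to GRCm38.p4, made TruSeq stranded libraries, and kept QuantSeq REV reads near known polyadenylation sites. For CRAC, the authors deposited read coverage (a signal), counts of reads with a deletion, a motif score and a combined p-value per 7-nt window, after pooling the 3 libraries of a group, and penalized for control signal. Crosslinking deletions can also arise from alignment in U runs.

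Counts were tested with edgeR 4.0.16 in R 4.3.3 (TMM, filterByExpr, glmQLFit and glmQLFTest, Benjamini-Hochberg over all genes tested). The fit took the 8 RNA-Seq and POL-Seq libraries together, and the 6 3′ end libraries together. All 34 members were among the 14906 genes tested, and 27 among 9621 at 3′ ends. Repeated rows of an end were used once and the ends of a gene summed. Usage was tested with diffSpliceDGE. An SE is the log2 change over the root of F. Exon lengths and shared 50-nt stretches came from GENCODE vM21. The fits were tested on simulated data with larger changes than those seen here and no effect of the replicate number. That test does not show how the fits handle changes of the size seen here.

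Same-numbered libraries deviated together from their group means. The correlation over genes was 0.26 to 0.54 over 6 pairs of RNA-Seq and POL-Seq groups, and 0.43, 0.70 and 0.55 for the 3 pairs of 3′ end libraries, so that numbers were taken as pairing the samples. The labels do not say what a number stands for.

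Alternatives were DESeq2 size factors, library totals, no filter, DESeq2 1.42.0, the replicate block, each comparison's 4 libraries alone, the most counted 3′ end, merged ends, and each library left out. Members and lists were chosen with earlier results of these data known. Values per library are given for members with a CRAC window, those with an unadjusted p under 0.05 and groups that did not overlap, and the SREBP regulators and main enzymes, and for other members by range. Acss2, Dhcr7 and Msmo1 were named after their values were seen. A CRAC window sequence and a marker gene are not reported here.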

Additional observations from a re-analysis of the deposited data

How the results depend on the processing

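The number of members lower in total RNA at an unadjusted p was 2, and 1 with library totals, 1 with DESeq2, 6 with the replicate block and 0 to 5 without 1 library. In polysomal RNA it was 1, and 6 with the block and 0 to 8 without 1 library. For translation efficiency it was 0, and 1 with the block and 0 to 2 without 1 library. At 3′ ends it was 3, and 8 with the block and 0 to 10 without 1 library. The number higher on polysomes of control cells was 1, and 0 with DESeq2, 0 with the 4 libraries alone, 6 with the block and 0 to 7 without 1 library.

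At an adjusted p the count was 0 throughout, except 1 with the replicate block at 3′ ends (Hsd17b7), 0 to 1 in polysomal RNA without 1 library (Nsdhl) and 0 to 2 on control polysomes without 1 library (Hmgcs1 and Nsdhl). The usage count at an unadjusted p went from 0 to 1 with the block. Calls of further pathway genes that the block changed are given beside them.

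The members' median log2 change reversed in polysomal RNA without control library 2 (0.0112, range -0.2104 to 0.0112). For translation efficiency it reversed in 4 of 8 cases (-0.0874, -0.0637, -0.0916 and -0.0616, range -0.0916 to 0.1069), and on control polysomes in 2 (-0.0464 and -0.0079, range -0.0464 to 0.1894). It kept its sign in total RNA (-0.1726 to -0.0127) and at 3′ ends (-0.2597 to -0.0535) without each library. Mvk lost its unadjusted call in total RNA with library totals, with DESeq2 and without control library 2 or HuD library 1, and Hmgcs1 its call on control polysomes with DESeq2, with 4 libraries alone and without polysomal library 2 or total library 1. Srebf1 lost its call without control library 2 or HuD library 2, and Nsdhl without polysomal control library 2 or either HuD library. At 3′ ends Hsd17b7 lost its call without control library 2 or HuD library 1, and Cyp51 and Acly without control libraries 2 or 3 or HuD libraries 1 or 3. Leaving libraries out of the blocked fit of Hsd17b7 was chosen after seeing the data. The causes were not tested, beyond fewer samples in those fits.

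With the combined p-value under 0.05 alone, 2 of the 10 contacted genes remained. With 2 libraries a group, changes of the size seen here are near the spread between libraries, and low 3′ end counts limit Srebf1 and Srebf2.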
